A study of Mus musculus with 29 samples.

Results

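The oligoadenylate synthetase (OAS) family was followed through 3 RNA-seq experiments in which the microRNA miR-99b-5p was inhibited. The 8 members, Oas1a, Oas1b, Oas1c, Oas1g, Oas2, Oas3, Oasl1 and Oasl2, were taken by gene symbol, and each symbol matched 1 of the 48709 gene identifiers of the count tables. The inhibitor, anti-miR-99b, is an oligonucleotide with locked nucleic acid bases that pairs with miR-99b-5p, and sc-control is its scrambled counterpart. The libraries hold polyadenylated RNA, so the mature microRNA itself was not measured. In the prefrontal cortex (PFC) experiment, male C57BL/6J mice at an age of 3 months were injected in both hemispheres with lipid nanoparticles that carried the inhibitor (3 libraries) or sc-control (3 libraries), and PFC tissue was taken on day 5, with 1 mouse per library. In the microglia experiment, primary microglia shaken off mixed glial cultures of newborn CD1 pups were treated for 2 days, which gave 4 anti-miR-99b and 4 sc-control libraries. In the co-culture experiment, cortical neurons of CD1 embryos were grown with microglia treated in the same way before the transfer, which gave 7 anti-miR-99b and 8 sc-control libraries. Tissue and mouse strain differ together between the PFC and the cultures and cannot be told apart. The sources used here do not say which culture libraries came from separate preparations, so p-values for the cultures measure the spread between these libraries, which may be technical.

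OAS proteins sense double-stranded RNA. Once bound to it, the active enzymes join ATP into short oligoadenylates, which serve as second messengers of the antiviral response. Transcription of the family is low in resting cells and is raised by interferons, whose receptors activate a complex with STAT2 and IRF9 that binds the interferon-stimulated response element (ISRE) in promoters. In the brain, microglia are a main cell type in which interferon-stimulated genes are switched on. Among the members, Oas1a, Oas1g, Oas2 and Oas3 encode synthetases, and Oas3 is the large form. Oas1b is the locus of flavivirus resistance in mice, with a prematurely ended protein in C57BL/6 and many other laboratory strains. Oas1c is a further Oas1 paralog. Oasl1 and Oasl2 encode OAS-like proteins with ubiquitin-like domains, and Oasl1 is known for repressing the translation of Irf7.

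The inhibited microRNA is encoded on mouse chromosome 17 (GRCm38.p6, RefSeq, chr17:17830194-17830215, plus strand). Its mature sequence is shown because its seed, bases 2 to 8 in capitals, is the part that pairs with target mRNAs.
mmu-miR-99b-5p: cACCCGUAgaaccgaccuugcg
The letters TACGGGT, which pair with this seed, were found in at least 1 protein-coding transcript of 2.95% of the 21901 genes with such a transcript in GENCODE M21. In the family, where annotated transcripts of every type were searched, they were found in 1 of the 4 transcripts of Oas3 and in no transcript of the other 7 members. The 2 searches are therefore not alike. A match is a description of the letters and does not show a site in use.

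All 8 members lie on chromosome 5, in a pair of clusters (GRCm38). Oasl2 (chr5:114896936-114912234) and Oasl1 (chr5:114923240-114937915) are neighbours on the plus strand. The second cluster holds Oas2 (chr5:120730333-120749853), Oas3 (chr5:120753098-120777661), Oas1c (chr5:120800194-120812514), Oas1g (chr5:120876142-120887613) and Oas1a (chr5:120896256-120907521) on the minus strand and Oas1b (chr5:120812635-120824163) on the plus strand. Oas1b, annotated as a polymorphic pseudogene, and Oas1c run away from each other, with annotated starts 121 bases apart. Exon bases were shared between Oas1c and Gm43069 and between Oasl1 and Gm13822, both on the opposite strand, and Gm43068 overlapped Oas2 without a shared exon base. As the strand setting of the counting is not given in the sources used here, reads of such a pair cannot be told apart. Close paralogs also share sequence at the read length of 50 bases. Of the 50-base words in the transcripts of Oas1a, 57.6% also occurred in another gene, Oas1g above all, and of those of Oas1g 45.7% occurred elsewhere. The shares were 15.1% for Oas1c, 2.98% for Oas1b and under 1% for Oas2, Oas3, Oasl1 and Oasl2. The split of reads between Oas1a and Oas1g is therefore uncertain, as the handling of reads with several matches is not stated.

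Reference promoters, from 250 bases before to 50 bases after the annotated start, were at hand for 6 of the 8 members in RefSeq (GRCm38.p6), namely Oas1a, Oas1c, Oas1g, Oas3, Oasl1 and Oasl2. They were searched on both strands for the ISRE letters GAAANNGAAA and for the letters TTCNNNGAA of the gamma-activated sequence (GAS), an element known from the response to interferon gamma. The ISRE letters were held by 3.44% of all 32851 promoters and the GAS letters by 8.3%. The stretches with ISRE letters are printed in the direction of the gene, with the matched letters in capitals, because transcription of the family is known to be driven through this element.
Oas1a, chr5:120907506-120907569, minus strand: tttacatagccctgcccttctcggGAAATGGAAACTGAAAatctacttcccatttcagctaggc
Oas1g, chr5:120887592-120887655, minus strand: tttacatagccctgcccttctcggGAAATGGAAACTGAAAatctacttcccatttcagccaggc
Oas1b, chr5:120812589-120812652, plus strand: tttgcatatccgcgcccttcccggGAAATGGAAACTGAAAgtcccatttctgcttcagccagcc
Oas3, chr5:120777701-120777758, minus strand: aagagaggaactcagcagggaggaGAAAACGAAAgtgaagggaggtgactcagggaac
In Oas1a and Oas1g, 2 overlapping matches began 20 and 18 bases before the RefSeq start. The same 16 capital letters stood in the promoter window of Oas1c, on the strand of its neighbour Oas1b, where they began 22 bases before the GENCODE start of Oas1b. At least 2 matches were held by 0.225% of all promoters. In Oas3, 1 match began 75 bases before the start. Oas1a also held 1 match to the GAS letters, and the windows of Oasl1 and Oasl2 held neither set of letters. No match says only that these letters are not in this window.

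**Figure D1:**
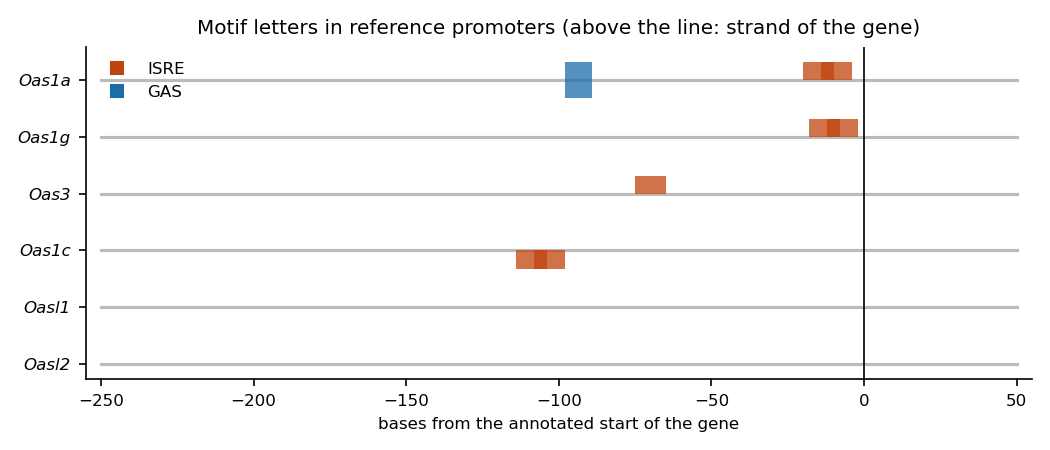
Positions of ISRE and GAS letters in the reference promoters of 6 members, in bases from the annotated start (x axis), with boxes above the line for the strand of the gene and below it for the opposite strand. Oas1a and Oas1g have overlapping ISRE matches close to the start, those in the Oas1c window lie on the opposite strand, and Oasl1 and Oasl2 have no match.

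The libraries held between 21324156 and 37901110 reads counted on genes, which limits the precision of the lowest members, and no pair of libraries of a group agreed within sampling noise. The deposited values are raw read counts, and levels are given as CPM, the counts scaled to a common library size with TMM factors. Microglial markers summed to between 11359 and 12010 CPM in the microglia libraries, to between 433 and 600.3 CPM in the PFC and to between 99.4 and 138 CPM in the co-cultures, where the 8 neuronal markers reached 6481 to 6795 CPM. Markers of other cells in the microglia libraries summed to 109 to 122 CPM (neuron), 213 to 251 CPM (astrocyte), 127 to 147 CPM (oligodendrocyte), 52.3 to 62.9 CPM (endothelium, with Cldn5 at 0) and 3.25 to 4.73 CPM (blood and peripheral immune cells, with Hba-a1 and Cd3e at 0). In tissue and in mixed cultures, a change in the number of cells of a type and a change in RNA per cell cannot be told apart.

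The baseline level of the family was taken from the sc-control libraries, as RPKM, which is CPM per kilobase of exon, so that genes can be compared per length. In microglia Oas1a had the highest level of the family (RPKM 18.1 ± 2.36, SD, n = 4), above 81.9% of the genes tested. With the exon length used, its range lay apart from that of every other member. Oas2 (RPKM 7.39 ± 1.56) and Oasl2 (RPKM 6.81 ± 1.6) followed with overlapping ranges. Next came Oas1g with an RPKM of 3.57 ± 0.659, apart from its neighbours on both sides. Oas1b (RPKM 1.62 ± 0.313), Oas1c (RPKM 1.32 ± 0.106) and Oas3 (RPKM 1.17 ± 0.327) overlapped each with the next in this order, and Oasl1 was lowest, just apart from Oas3, at an RPKM of 0.636 ± 0.197.

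In the PFC the order was another one. Oasl2 was the highest member (RPKM 2.09 ± 0.86, n = 3), above 38% of the genes tested, and its range lay apart from that of the next member. Oas1b, Oas1a, Oas2, Oas1c and Oasl1 followed with RPKM means from 0.734 down to 0.359, each overlapping with its neighbour. Oas1g (RPKM 0.151 ± 0.11) and Oas3 (RPKM 0.105 ± 0.0691) were lowest, also with overlapping ranges.

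In the co-cultures Oasl2 was the highest member (RPKM 2.12 ± 0.654, n = 8), and its range again lay apart from that of the next. Oas1b, Oas1a and Oas1c overlapped at RPKM means between 0.572 and 0.381. A lower set, Oas2, Oasl1, Oas1g and Oas3, had RPKM means from 0.131 down to 0.0142, and Oas1g and Oas3 rested on as few as 1 read in a library. These orders describe each experiment alone, and no test was made between experiments. They also depend on the gene length used. The exons of Oasl2 together span 6374 bases, while its longest transcript has 3123. That length would raise its mean RPKM in microglia to 13.9, above that of Oas2, and its range would then overlap that of Oas1a.

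**Figure D2:**
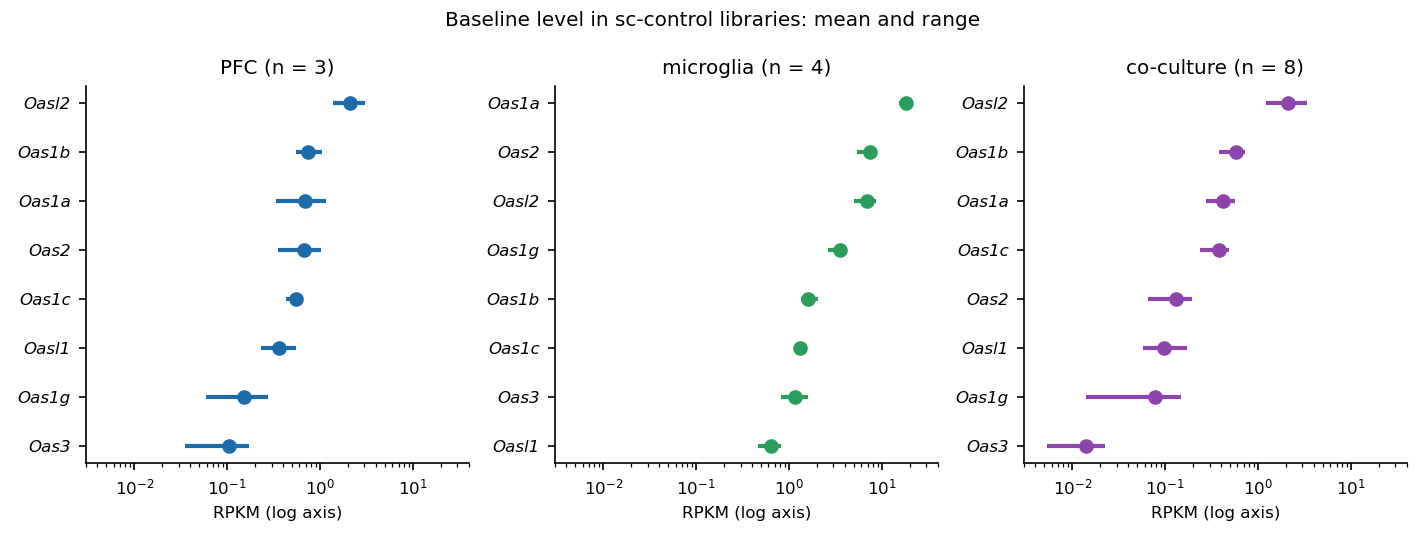
Baseline RPKM (x axis, log scale) of the 8 members in the sc-control libraries of each experiment, with the mean as a point and the lowest to highest library as a line. Oas1a leads in microglia at a mean of 18.1, while Oasl2 is the highest member in the PFC and in the co-cultures at means of 2.09 and 2.12.

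The microglia experiment asks whether inhibition of miR-99b changed the family in isolated microglia. All 8 members had a higher mean after anti-miR-99b, and 5 of 8 rose at an adjusted p under 0.1 and a log2 fold change (log2FC) beyond 0.1 in edgeR's quasi-likelihood test, against 0.435% of the 14953 genes tested. They were the synthetase genes Oas1a, Oas1g and Oas3 and the OAS-like genes Oasl1 and Oasl2. As Oas1a and Oas1g share sequence at the read length, their calls may not be separate. No member fell, against 0.0535% of all genes, none of the 8 was lower at an unadjusted p under 0.05, and DESeq2 called none lower either. At an unadjusted p under 0.05, all 8 were higher, as were 3.4% of all genes. The median log2FC of the 8 members was 0.49, beside 0.00 for all genes tested, 51.6% of which had a log2FC above 0. DESeq2 called 1 of the 8 members up, Oasl1, and 0.221% of all genes.

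Among the OAS-like genes, Oasl1 was read at 2.12, 2.09, 1.23 and 1.2 CPM in the sc-control libraries (replicates 2, 3, 4 and 6) and at 3.03, 2.36, 2.45 and 3.24 CPM after anti-miR-99b (replicates 1, 3, 4 and 5). Every treated library was above every control, a separation in this direction that 1.65% of all genes tested had. Its log2FC was 0.78 ± 0.17 (SE, edgeR adjusted p = 0.0495), and the two-sided exact permutation p was 0.0286, the smallest that 4 against 4 allows. Oasl2, the most abundant of the OAS-like pair, had 55.3, 47.7, 38.7 and 32 CPM in the controls and 74.6, 47.7, 64 and 75.1 CPM after anti-miR-99b. Replicate 3 of anti-miR-99b lay within the control range and the other 3 above it. The log2FC was 0.61 ± 0.12 (edgeR adjusted p = 0.0272).

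Among the synthetases, Oas3 had 11.3, 8.56, 7.46 and 5.76 CPM in the controls and 15.2, 9.68, 12.8 and 15.7 CPM in treated microglia, with a log2FC of 0.73 ± 0.14 (edgeR adjusted p = 0.0257). Again replicate 3 of anti-miR-99b was the treated library within the control range. Oas1a, the most abundant synthetase gene, had 39.6, 35.2, 32.7 and 29 CPM in the controls against 46.3, 38.2, 46.1 and 47.6 CPM, a log2FC of 0.40 ± 0.07 (edgeR adjusted p = 0.0219). Oas1g, which shares sequence with Oas1a, had 9.72, 8.9, 8.65 and 6.14 CPM against 11.9, 9.52, 12 and 13.1 CPM. Its log2FC was 0.50 ± 0.11 (edgeR adjusted p = 0.0395). For both, 3 of 4 treated libraries were above all controls. For Oas1a, Oas1g, Oas3 and Oasl2 the two-sided exact permutation p was 0.0571.

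Oas2, Oas1b and Oas1c did not pass the test in microglia. Oas2 had 39.3, 37.2, 31.2 and 23.8 CPM in the controls and 51.9, 31.4, 45.4 and 51.9 CPM after anti-miR-99b, with a log2FC of 0.48 ± 0.13 (edgeR adjusted p = 0.169). Its replicate 3 of anti-miR-99b lay below 2 of the 4 controls, a wider overlap than in the called members. Oas1b was between 2.66 and 4.1 CPM in the controls and between 3.61 and 4.44 CPM in treated libraries, with a log2FC of 0.33 ± 0.12 (edgeR adjusted p = 0.571). Oas1c was between 2.96 and 3.5 CPM and between 3.26 and 4.26 CPM, with a log2FC of 0.27 ± 0.11 (edgeR adjusted p = 0.655). The two-sided exact permutation p was 0.114 for Oas2 and Oas1b and 0.0571 for Oas1c, the same as for most of the called members.

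The microglia calls depended on single libraries. The count of 5 fell to 0 without sc-control replicate 4, sc-control replicate 6 or anti-miR-99b replicate 5, to 1 (Oas1a) without anti-miR-99b replicate 1 and to 3 (Oas1a, Oas3 and Oasl2) without anti-miR-99b replicate 4. It was 7 without sc-control replicate 2, 6 without anti-miR-99b replicate 3 and 5 without sc-control replicate 3. The number of all genes called up, 65 in the full fit, was 0, 6 and 2 in the first 3 of these fits. It was 11 and 28 in the next 2, and 234, 101 and 65 in the last 3. In all of these fits each of the 8 members kept a log2FC above 0. Within sequencing lane 5 (2 against 2 libraries) the difference of mean log2(CPM + 0.5) lay between 0.08 and 0.29 across the members, and within lane 6 (2 against 2) between 0.39 and 1.06. With the lane as a block the count of members was again 5, in a fit that called 69 of 14953 genes up. Of the microglial markers, 8 of 10 had a log2FC above 0, at most 0.07, and 0 were called, with sums of 11677 to 12010 CPM after anti-miR-99b and 11359 to 11841 CPM in the controls. Of the 4 oligodendrocyte markers all had a log2FC below 0 and 0 were called, with sums of 127 to 135 CPM after anti-miR-99b and 129.9 to 147 CPM in the controls.

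**Figure D3:**
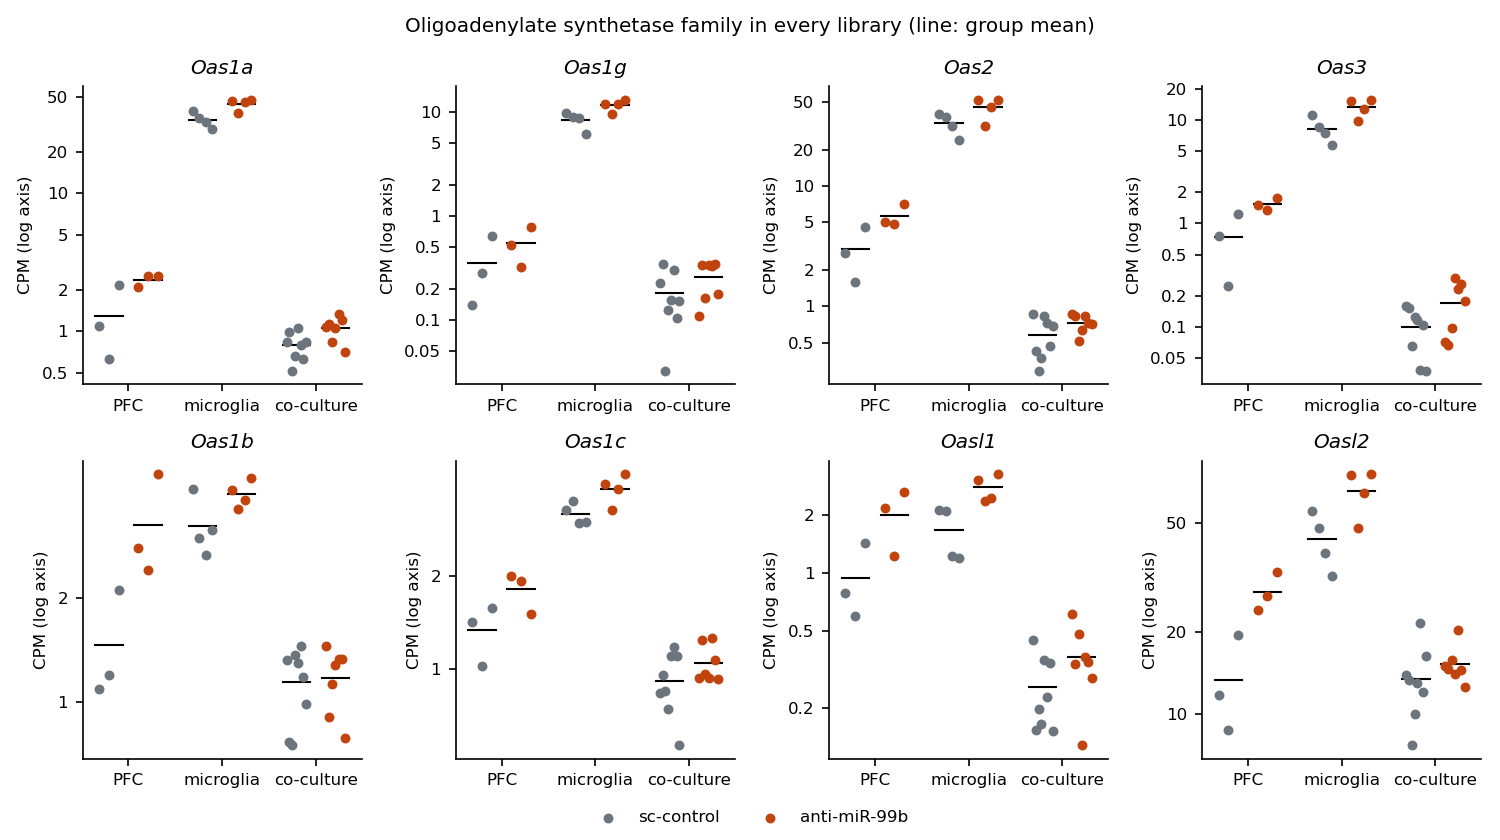
Level of each member (CPM, log axis) in all 29 libraries, by experiment, with sc-control in grey, anti-miR-99b in orange and the group mean as a line. In microglia 1 treated library lies at or within the control range for most members, in the PFC 1 control library lies close to the treated ones, and in the co-cultures the groups overlap.

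In the PFC, which asks the same question in the tissue, the mean of all 8 members was also higher after anti-miR-99b, with a log2FC between 0.42 and 1.15 and a wide spread between mice. No member was called up at an adjusted p under 0.1 and a log2FC beyond 0.2 in edgeR, where 0.0864% of the 17364 genes tested were, and none was called down, against 0% of all genes. At an unadjusted p under 0.05, 6 of the 8 were higher, as were 5.17% of all genes, and DESeq2 called 1, Oas1b, and 0.49% of all genes up. The median log2FC was 0.96, beside 0.00 for all genes tested, of which 50.6% had a log2FC above 0. In 4 of the 8 members (Oas1b, Oas2, Oas3 and Oasl2) all 3 treated mice were above all 3 control mice, which held for 7.52% of all genes tested. With 3 against 3, an exact permutation test cannot go below 0.1.

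Oasl2 had 11.7, 8.77 and 19.4 CPM in sc-control mice (replicates 2, 3 and 4) and 23.9, 26.9 and 33.1 CPM in anti-miR-99b mice (replicates 1, 2 and 3). Its log2FC was 1.07 ± 0.24 (edgeR adjusted p = 0.281). The highest control, replicate 4, and the highest treated library, replicate 3, were both read on lane 7, and the other 4 on lane 6. With the lane as a block the log2FC was 1.11 ± 0.13 (edgeR adjusted p = 0.00992). Oas1b, the flavivirus resistance locus, had 1.09, 1.2 and 2.1 CPM in controls and 2.78, 2.39 and 4.54 CPM in treated mice, a log2FC of 1.15 ± 0.30 (edgeR adjusted p = 0.375), or 1.15 ± 0.16 with the lane block (edgeR adjusted p = 0.0256). These were the 2 members called with the lane as a block, a fit that called 0.42% of all genes up.

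Of the other members, Oas2 had 2.76, 1.59 and 4.54 CPM in controls against 4.98, 4.79 and 7.04 CPM, a log2FC of 0.91 ± 0.30 (edgeR adjusted p = 0.587). Oas3 had 0.754, 0.247 and 1.22 CPM against 1.51, 1.36 and 1.74 CPM, a log2FC of 1.01 ± 0.39 (edgeR adjusted p = 0.648). In both genes control replicate 4 came close to the lowest treated mouse. Oasl1 had 0.782, 0.599 and 1.43 CPM against 2.16, 1.22 and 2.63 CPM, a log2FC of 1.08 ± 0.35 (edgeR adjusted p = 0.575), and replicate 2 of anti-miR-99b lay below control replicate 4. Oas1a had 1.09, 0.634 and 2.16 CPM against 2.08, 2.5 and 2.53 CPM, a log2FC of 0.86 ± 0.34 (edgeR adjusted p = 0.648). Here replicate 1 of anti-miR-99b was the one below control replicate 4. Oas1c, with 1.02 to 1.57 CPM against 1.51 to 2 CPM, had the smallest difference, a log2FC of 0.42 ± 0.21 (edgeR adjusted p = 0.66). Oas1g rested on 5 to 24 reads per library and had a log2FC of 0.63 ± 0.51 (edgeR adjusted p = 0.754).

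Without sc-control replicate 4, 4 members were called (Oas1a, Oas1b, Oas2 and Oasl2, with edgeR adjusted p from 0.00805 to 0.0572), and leaving out any other PFC library gave 0. The fit without sc-control replicate 4 called 195 of 17630 genes up, against 15 of 17364 in the full fit. Within lane 6 (2 against 2 mice) the differences of mean log2(CPM + 0.5) lay between 0.38 and 1.28, and all 8 were above 0. Within lane 7 (1 against 1) they lay between -0.04 and 0.96, with 7 above 0 and Oas1c below it. Microglial markers moved in the same direction, with 9 of 10 at a log2FC above 0, 0 of 10 called, and sums of 547 to 600.3 CPM after anti-miR-99b and 433 to 571 CPM in the controls. Astrocyte markers summed to 1360 to 1437 CPM after anti-miR-99b and to 1167, 1176 and 1495 CPM in sc-control replicates 2, 3 and 4, with 4 of 5 at a log2FC above 0 and 0 called. The sum of the 6 blood and peripheral immune markers was 47.9 to 88.8 CPM after anti-miR-99b and 53.3 to 66.5 CPM in the controls, with all 5 markers tested at a log2FC above 0 and 0 called. The part of these markers in the differences of the family was not tested.

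**Figure D4:**
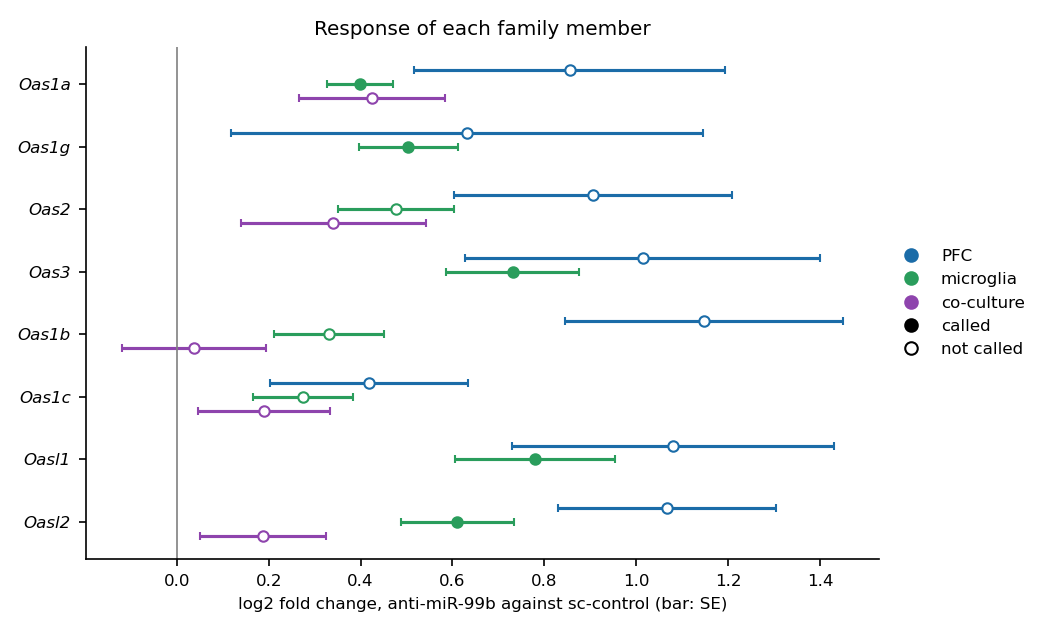
The log2FC of each member (x axis, with SE as bars) in the 3 experiments, filled where called and open where not called. The PFC values reach 1.15 with wide bars, the 5 filled points are all from microglia, and the co-culture values lie between 0.04 and 0.42.

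The co-cultures ask whether the difference was seen after treated microglia were moved onto neurons. Of the 8 members 5 passed the filter on low counts, and all 5 had a log2FC above 0, a sign that 51.6% of all genes tested shared. None was called up or down at an adjusted p under 0.05 and a log2FC beyond 0.1 in edgeR, against 0.846% and 0.556% of the 16193 genes tested. At an unadjusted p under 0.05, 1 of the 5 was higher, Oas1a, as were 6.4% of all genes, and DESeq2 called 0 members, and 0.976% of all genes up. No member had every treated library above every control, as 0.303% of all genes had. The median log2FC of the 5 was 0.19, beside 0.00 for all genes tested.

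Oasl2 had a lowest, median and highest level of 7.69, 13.2 and 21.6 CPM in the controls and of 12.5, 14.6 and 20.3 CPM after anti-miR-99b, so that the treated range lay inside the control range. Its log2FC was 0.19 ± 0.14 (edgeR adjusted p = 0.61). Oas1a had 0.522, 0.816 and 1.06 CPM in the controls and 0.715, 1.08 and 1.33 CPM after anti-miR-99b, with a log2FC of 0.42 ± 0.16 (edgeR adjusted p = 0.214) and 5 of 7 treated libraries above all controls. The two-sided exact permutation p for Oas1a was 0.0295, unadjusted, and for Oas2, Oas1c, Oasl2 and Oas1b it was 0.115, 0.175, 0.257 and 0.792. Oas1a rested on 16 to 27 reads per library in the controls and 20 to 40 after anti-miR-99b. The synthetase gene Oas2 had 0.293, 0.577 and 0.869 CPM against 0.516, 0.73 and 0.868 CPM and a log2FC of 0.34 ± 0.20 (edgeR adjusted p = 0.498). Oas1c had a log2FC of 0.19 ± 0.14 (edgeR adjusted p = 0.624) and Oas1b one of 0.04 ± 0.16 (edgeR adjusted p = 0.95). Oas1c had a median of 0.904 and a highest level of 1.18 CPM in the controls and a lowest, median and highest level of 0.929, 0.967 and 1.26 CPM after anti-miR-99b, so that the ranges overlapped while the controls reached lower. Oas1b had nearly the same range in both groups, with medians of 1.24 and 1.28 CPM.

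Oas1g, Oas3 and Oasl1 were not tested in the co-cultures, since they had 1 to 9, 1 to 5 and 4 to 14 reads per library in the controls and 3 to 10, 2 to 7 and 3 to 17 reads after anti-miR-99b. In a fit without the filter their log2FC were 0.52, 0.70 and 0.50, with edgeR adjusted p of 0.652, 0.605 and 0.582. Within lanes 4, 5, 6 and 7 the median difference of mean log2(CPM + 0.5) over the 8 members was 0.15, 0.10, -0.12 and 0.25, and lane 6 held 1 library of each group. In these co-cultures 5 of the 10 microglial markers were called up (C1qa, Cx3cr1, Cd68, Trem2 and Csf1r), against 0.846% of all genes, and 0 were called down. Of the 10, 9 had a log2FC above 0, the lowest was -0.24, and 2 stayed under 1 CPM in all libraries. The markers summed to 124 to 138 CPM after anti-miR-99b and to 99.4 to 126 CPM in the controls. The part of this in the values of the family was not tested.

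Whether the effect of anti-miR-99b differed between experiments was tested directly, in 1 fit over all 29 libraries. The filter of this fit covered all groups together, so Oas1g, Oas3 and Oasl1 were tested here although they failed it in the co-cultures alone. With so few co-culture reads, their contrasts with the co-cultures cannot decide the question. For Oas3 the difference in log2FC between the PFC and the co-cultures was 0.31 ± 0.77. No member differed at an adjusted p under 0.05 in edgeR between the PFC and microglia, the PFC and the co-cultures, or microglia and the co-cultures, against 0.469%, 0.791% and 0.0844% of the 18963 genes tested. At an unadjusted p under 0.05 there were 1, 2 and 0 members, against 11.9%, 15% and 5.49% of all genes, and DESeq2 called 0 members in each, against 1.43%, 2.67% and 0.2%. The largest difference was that of Oas1b, whose log2FC was higher by 1.12 ± 0.30 in the PFC than in the co-cultures (edgeR adjusted p = 0.0648), followed by Oasl2 with 0.88 ± 0.29 (edgeR adjusted p = 0.135). With experiment and lane as blocks both were called, in a fit that called 434 of the 18963 genes between the PFC and the co-cultures. Without the blocks 150 genes were called there. Oas1b also had the largest difference between the PFC and microglia, 0.81 ± 0.28 (edgeR adjusted p = 0.218). A difference that misses the threshold does not show that the effects were alike.

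Abce1 and genes of oligoadenylate turnover were looked at beside the family. Abce1, a ribosome-recycling factor, and Pde12 and Akap7, genes of oligoadenylate-degrading enzymes, were not called by edgeR in any experiment, with log2FC from -0.24 to 0.02 across the 3 experiments. The lowest value was that of Pde12 in the PFC (-0.24 ± 0.11, edgeR adjusted p = 0.649), which was called down there with a RUVr factor.

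A list of 27 genes of the pathway beside the family, these 3 among them, gave 20 that could be tested in each experiment. In microglia 8 of the 20 rose in edgeR, against 0.435% of all genes tested, and none fell. DESeq2 called 3 up there (Ifih1, Adar and Eif2ak2), against 0.221% of all genes. At an unadjusted p under 0.05 there were 10, of which Akap7 was lower, against 6.45% of all genes in either direction. In the PFC and in the co-cultures edgeR called none in either direction. At an unadjusted p under 0.05 there were 9 in the PFC (8 higher and Pde12 lower), against 7.64% of all genes, and 4 in the co-cultures, against 13.2%. DESeq2 called 2 up in the PFC (Stat2 and Dhx58), against 0.49% of all genes, and 1 in the co-cultures (Irf7), against 0.976%. The median log2FC of the 20 was 0.14 in the PFC, 0.07 in microglia and 0.04 in the co-cultures. The microglia count was 0 without sc-control replicate 4 or anti-miR-99b replicate 5, 2 (Irf7 and Eif2ak2) without sc-control replicate 6 or anti-miR-99b replicate 1, and 6 to 9 without any other library. The numbers of all genes called up in these microglia fits are those given with the members. The PFC count was 6 without sc-control replicate 4 (Ddx58, Usp18, Irf7, Stat2, Irf9 and Dhx58) and 5 with the lane as a block. These 2 fits called 195 of 17630 and 73 of 17364 genes up.

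By role, 5 of the 6 RNA sensor genes rose in microglia, the exception being Mavs, the adaptor of RIG-I and MDA5. They were Eif2ak2, which encodes PKR, with a log2FC of 0.27 ± 0.05 (edgeR adjusted p = 0.0115), Dhx58 with 0.41 ± 0.08, Ddx58, which encodes RIG-I, with 0.39 ± 0.07, Ifih1, which encodes MDA5, with 0.25 ± 0.05 and the RNA-editing enzyme gene Adar with 0.22 ± 0.05.

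Of the 6 receptor and signal genes, Stat2 rose in microglia, with a log2FC of 0.33 ± 0.07 (edgeR adjusted p = 0.0405). Ifnar1, Ifnar2, Jak1 and Tyk2, the receptor chains and their kinases, had log2FC between 0.01 and 0.03, and Irf9 had 0.16 ± 0.05 (edgeR adjusted p = 0.323). Irf7, a factor that induces interferon genes and is itself interferon-stimulated, rose with a log2FC of 0.65 ± 0.11 (edgeR adjusted p = 0.0106), and Usp18, a feedback inhibitor of the receptor, rose with 0.66 ± 0.13 (edgeR adjusted p = 0.0272). In the PFC the largest values in the list were those of Irf7 (1.07 ± 0.24) and Usp18 (1.05 ± 0.33), neither called, with edgeR adjusted p of 0.286 and 0.541. In the co-cultures Irf7 had 0.54 ± 0.14 (edgeR adjusted p = 0.0577). The interferon genes Ifnb1, Ifna4 and Ifng and the paralogs Oas1d, Oas1e, Oas1f and Oas1h failed the filter in all 3 experiments, with at most 9 reads in any library, so their change could not be measured.

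**Figure D5:**
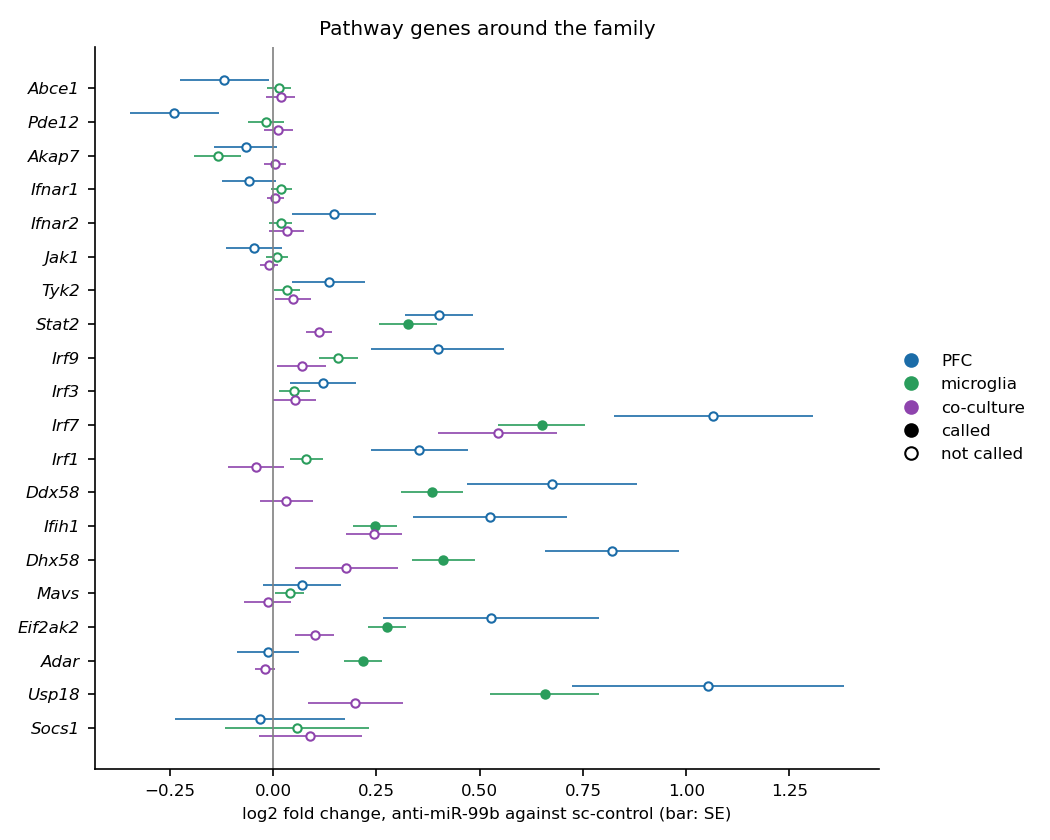
The log2FC with SE of the 20 pathway genes tested (x axis) in the 3 experiments, filled where called. Filled points are in microglia for Stat2, Irf7, Usp18 and 5 RNA sensors, while Ifnar1, Jak1 and Mavs lie within 0.07 of 0.

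Across the 29 libraries the 5 members that passed the filter in every experiment (Oas1a, Oas1b, Oas1c, Oas2 and Oasl2) moved together to an uneven degree. Pearson's r of log2(CPM + 0.5), centred on each experiment, lay between 0.43 and 0.89 over the 10 pairs, with a median of 0.73. Oas2 and Oasl2 were most alike, and Oas1b and Oas1c, whose starts are neighbours, least alike. Centred on each group, so that the treatment is taken out, the range was 0.14 to 0.81 with a median of 0.55, and the same pairs were highest and lowest. These correlations are descriptions without a reference from pairs of other genes, and the libraries share experiment, lane and depth.

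The genes whose pattern was most like the mean of these 5 members, among 13645 others that passed in all 3 experiments, were Isg15 (r = 0.96), Rtp4 (0.94), Irf9 (0.93), Rnf213 (0.93), Lgals3bp (0.92), Ifit1 (0.92), Usp18 (0.92), Irf7 (0.92), Xaf1 (0.91) and Irgm1 (0.91). Centred on each group, they were Rtp4 (0.94), Isg15 (0.91), Irf9 (0.91), Rnf213 (0.86) and Xaf1 (0.86). The summed level of the 8 members by library weighs the most abundant members most. Oasl2 alone gave 11.7 of the 19.8 CPM in PFC sc-control replicate 2. In the PFC the sum was 19.8, 14.3 and 33.1 CPM in the controls and 39.9, 41.4 and 53.9 CPM after anti-miR-99b, without overlap. Taken singly, 4 of the 8 members were apart in this way, as were 7.52% of all genes tested. In microglia the sum was 165, 146, 126 and 104 CPM in the controls and 211, 146, 190.3 and 215 CPM after anti-miR-99b. There, replicate 3 of anti-miR-99b lay within the control range. In the co-cultures it ranged from 10.4 to 26.3 CPM in the controls and from 16.3 to 25.9 CPM after anti-miR-99b, inside the control range.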

How the data were processed

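RNA was sequenced in 29 libraries of 3 experiments. The authors made TruSeq libraries of polyadenylated RNA and single reads of 50 bases, processed them, per the submitters' processing notes, with bcl2fastq 2.20.2, FastQC 0.11.5, STAR 2.5.2b (mm10) and featureCounts 1.5.1, and deposited raw counts of reads per gene. Annotation release, strand setting and handling of reads with several matches are not given in the sources used here. Groups, replicate numbers and lanes come from the labels, and 0 columns of values were left unused.

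Genes were filtered with filterByExpr, scaled by TMM and tested with the quasi-likelihood test of edgeR 4.0.16 in R 4.3.3, in each experiment alone and without covariates, with Benjamini-Hochberg adjustment over all genes tested. A gene was called at an adjusted p under 0.1 and a log2FC beyond 0.2 (PFC), under 0.1 and beyond 0.1 (microglia), or under 0.05 and beyond 0.1 (co-cultures). SE is the log2FC divided by the square root of F. Differences between experiments were contrasts in 1 fit of all libraries. Single values were compared by exact permutation tests on log2(CPM + 0.5). RPKM used the exon length of GENCODE M21 (GRCm38), of which 48349 symbols were matched. Alternatives were DESeq2 1.42.0, RLE factors, no filter, lane or replicate blocks, 1 RUVs or RUVr factor written out in R, other thresholds, and leaving out each library in the PFC and microglia. The crossed block and the fit of shared-number libraries without a block were chosen after seeing the data. The code was tested on simulated data.

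The members and gene lists were chosen with earlier results of these data known. The genes named are the members, the listed pathway genes (a few listed pathway and marker genes are not reported here and stand in no list count), genes overlapping a member and, by Pearson's r to the family profile, the first 10 (centred on experiment) and the first 5 (centred on group).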

Additional observations from a re-analysis of the deposited data

Results flagged for a closer look

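In 32 sets of library values (8 members in the 4 groups of 4 to 10 libraries), 2 had a library set apart from the others by Dixon's criterion, where chance gives about 1 in 20. Oas1a in microglia anti-miR-99b replicate 3 was 38.2 CPM, below the other 3 libraries of the group at 46.1 to 47.6 CPM. Oasl2 in co-culture anti-miR-99b replicate 10 was 20.3 CPM, above the other 6 at 12.5 to 15.7 CPM.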

How the results depend on the processing

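In the PFC, the 0 members called up became 1 with DESeq2, 6 without the low-count filter, 2 with the lane block, 6 with the replicate block, 6 with the crossed block, 6 in the shared-number libraries without a block, 3 with a RUVs and 5 with a RUVr factor, and 0 to 4 on leaving out 1 library. All genes called (15) became 93, 412, 77, 518, 638, 315, 284 and 1015 in the same order, and 1 to 201. In microglia, the 5 members called became 1 with DESeq2, 3 with the replicate block, 2 in the shared-number libraries and 0 to 7 on leaving out 1 library. Beside these 5, Oas2 was also called without the filter, with RUVs and with RUVr. All genes called there (73) became 38 with DESeq2, 167 without the filter, 249 with the replicate block, 153 in the shared-number libraries, 160 with RUVs, 147 with RUVr and 2 to 409 on leaving out 1 library. In the co-cultures no alternative changed the 0 members called, while all genes called (227) became 121 with the lane block, 93 with the replicate block, 123 in the shared-number libraries, 520 with RUVs and 543 with RUVr. Of the 20 pathway genes tested, those called up in the PFC (0) became 8 without the filter, 9 with the replicate, the crossed block or RUVs, 8 in the shared-number libraries and 9 with RUVr, which called Pde12 down. Those in microglia (8) became 6 with the replicate block, 4 in the shared-number libraries and 9 without the filter, with RUVs or with RUVr, and those in the co-cultures (0) became 1 without the filter and 3 with RUVs or RUVr. Members that differed between the PFC and the co-cultures became 2 (from 0) with experiment and lane as blocks, and all genes became 434 (from 150).

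Without the filter, the prior degrees of freedom of the fit rose from 6.05 to 112 in the PFC, and the cause of the other shifts was not tested. Same-numbered libraries deviated together with r of 0.05 and -0.28 in the PFC, -0.05 and -0.04 in microglia and -0.01 to 0.05 in the co-cultures, so the numbers were not taken to pair them, and the replicate block called 518 genes in the PFC, 249 in microglia and 93 in the co-cultures on the libraries whose number both groups share. No log2FC of a member turned its sign under any alternative. RPKM of Oasl2 and Oas3 moved beyond 1 SD with the longest transcript length in 5 of 6 cases. Counts of a few reads limit Oas1g, Oas3 and Oasl1 in the co-cultures.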
